A study of Mus musculus with 4 samples.

Results

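The collagen genes of sorted mouse lung smooth muscle cells (SMCs) were followed in 4 RNA-seq libraries, 2 from controls and 2 from Tet3 mutants. Members were all protein-coding genes in the deposited table named Col, a number, a and a number, which gave 41 of 21462 genes. Of these, 35 had a mean of at least 10 normalized counts over the 4 libraries and entered the test, and 6 did not. The labels give the strain as C57BL/6 for all animals. By the study's methods, mutants carried floxed *Tet3* alleles, a tamoxifen-inducible Cre under the alpha-SMA promoter and a *ROSA26* tdTomato reporter. Over all its experiments, controls lacked the floxed allele but had the Cre, the reporter or both. Cells of these libraries were sorted by tdTomato in both groups, which takes the Cre and the reporter together. TET3 is an enzyme that converts 5-methylcytosine in DNA to 5-hydroxymethylcytosine. Tamoxifen was given to young adult mice of the C57BL/6 background, and the labels name no age, sex, batch or number of pooled animals for a library. The study's methods and legends describe the libraries of a group as coming from independent animals, so that the spread between replicates includes that between animals. Lung suspensions were depleted of CD45+ and Ter-119+ cells before tdTomato+ cells were sorted. With an inducible Cre, this gate holds any cell in which the alpha-SMA promoter was active around the time of tamoxifen, and its descendants.

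Collagens are secreted or membrane proteins whose alpha chains wind into trimers, and each chain has its own gene. Fibril-forming collagens (types I, III, V) give tissue its tensile strength, type IV chains form the sheet-like network of basement membranes, type VI forms beaded filaments around cells, and fibril-associated collagens (FACITs) decorate fibril surfaces. In lung, fibroblasts, SMCs, pericytes, endothelium and epithelium each make a share of these chains, and thickened collagen around airways is a known feature of asthma. In a bulk library, fewer cells of a type and less RNA per cell cannot be told apart.

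All 6 type IV genes lie as head-to-head pairs, in which neighbouring genes are read away from each other, and the windows around their starts are shown because the results for type IV are given pair by pair. The annotated *Col4a1* and *Col4a2* genes overlap by 22 bases at their starts on chromosome 8, *Col4a4* and *Col4a3* lie 71 bases apart on chromosome 1, and *Col4a6* and *Col4a5* lie 1308 bases apart on chromosome X. Promoter windows from RefSeq (GRCm38.p6) reach from 250 bases before a start to 50 bases after it, and 32 of the 41 members matched one. Those printed here are chr8:11312777-11313076 (minus strand) for *Col4a1*, chr8:11312555-11312854 (plus strand) for *Col4a2*, chr1:82586800-82587099 (minus strand) for *Col4a4*, chrX:141475169-141475468 (plus strand) for *Col4a5* and chrX:141474027-141474326 (minus strand) for *Col4a6*. Capitals mark matches on either strand to the GC box, spelled GGGCGG, or to the CCAAT box.
Col4a1: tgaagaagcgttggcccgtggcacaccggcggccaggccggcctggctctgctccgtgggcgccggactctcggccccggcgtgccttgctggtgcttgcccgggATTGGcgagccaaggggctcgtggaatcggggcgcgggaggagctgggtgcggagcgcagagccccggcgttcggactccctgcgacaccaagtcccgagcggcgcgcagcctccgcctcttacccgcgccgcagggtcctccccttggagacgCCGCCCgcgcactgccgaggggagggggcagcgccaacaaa
Col4a2: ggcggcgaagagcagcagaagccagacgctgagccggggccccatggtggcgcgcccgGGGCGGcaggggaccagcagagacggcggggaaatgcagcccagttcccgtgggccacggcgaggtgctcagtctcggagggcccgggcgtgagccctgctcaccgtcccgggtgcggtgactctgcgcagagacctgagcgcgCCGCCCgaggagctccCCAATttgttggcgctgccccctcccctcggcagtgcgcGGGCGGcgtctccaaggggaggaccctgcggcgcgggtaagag
Col4a4: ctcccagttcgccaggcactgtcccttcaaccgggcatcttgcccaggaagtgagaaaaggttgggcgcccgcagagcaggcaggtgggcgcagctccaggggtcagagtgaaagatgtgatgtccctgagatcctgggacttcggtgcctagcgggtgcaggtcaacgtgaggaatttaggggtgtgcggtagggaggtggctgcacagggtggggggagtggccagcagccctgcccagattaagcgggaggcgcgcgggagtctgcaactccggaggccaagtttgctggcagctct
Col4a5: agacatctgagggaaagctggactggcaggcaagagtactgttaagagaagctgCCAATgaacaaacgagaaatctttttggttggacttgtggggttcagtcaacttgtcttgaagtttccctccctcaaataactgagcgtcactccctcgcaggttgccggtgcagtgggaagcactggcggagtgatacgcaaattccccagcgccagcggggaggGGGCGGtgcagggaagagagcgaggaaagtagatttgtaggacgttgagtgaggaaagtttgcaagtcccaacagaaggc
Col4a6: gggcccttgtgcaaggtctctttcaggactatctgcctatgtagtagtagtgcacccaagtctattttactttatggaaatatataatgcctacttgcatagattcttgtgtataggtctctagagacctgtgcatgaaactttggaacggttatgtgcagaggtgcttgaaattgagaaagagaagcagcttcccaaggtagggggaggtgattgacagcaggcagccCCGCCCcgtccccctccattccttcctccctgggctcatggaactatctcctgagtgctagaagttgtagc

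The *Col4a1* and *Col4a2* windows share 78 bases, read on opposite strands, and the *Col4a3* start lies inside the *Col4a4* window, which held neither box. The GC box occurred in 21 of the 32 member promoters (65.6%) and in 61.8% of the 11691 promoters of tested genes that were matched. The CCAAT box was present in 12 of the 32 (37.5%, against 38.1%). The TATA box, spelled TATAAA, was found in *Col3a1*, *Col11a2*, *Col13a1* and *Col17a1* (12.5%, against 7.81%). The CArG box, bound by serum response factor in muscle genes, matched only *Col6a4* among the 32 (3.12%, against 1.34%). Median GC content was 60.2% in member promoters and 60.3% in the promoters of tested genes, and the median number of CG dinucleotides was 13.5 against 20. A match is a description of these letters and not of a bound factor.

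Some facts of the libraries bear on what follows. Totals lay between 6805272 and 7164573 normalized counts, after scaling by the authors. The targeted gene *Tet3* stood at 1847 and 1926 normalized counts for controls, against 1534 and 1444 for the mutant libraries, a log2 fold change of -0.34 over the whole gene. Control replicate 2 stood apart, with 2 normalized counts of *Xist*, against 5214 to 6781 in the other libraries, and it alone held reads of the Y-linked gene *Ddx3y* (774). By these genes control replicate 2 had the pattern of a male and the other libraries that of females, so sex was not balanced between the groups. Sex cannot be told apart from other traits of this library. Values without control replicate 2 are given where leaving it out turned the direction of a collagen or pathway gene whose log2 fold change is given, or moved it by over 1.5 times. Smooth muscle markers were present in each library, with 10 of 10 genes tested, a summed level of 7445 and 10190 for controls, against 11039 and 10894 for mutants, and none at 0. Markers of other cells were also present. The summed levels ran from 16459 to 19287 for 12 fibroblast genes, from 14362 to 15629 for 9 endothelial genes, from 10661 to 22798 for 8 alveolar type 2 genes, from 1802 to 4353 for 6 alveolar type 1 genes, from 4578 to 6532 for 8 pericyte genes, from 2475 to 4818 for 8 ciliated cell genes, from 378 to 1005 for 6 mesothelial genes and from 4749 to 6511 for 9 leukocyte genes. Both mutants exceeded both controls for all 8 ciliated cell genes and 6 of the 8 pericyte genes (19.6% of all genes tested). The same held for 6 of the 10 smooth muscle genes, 5 of the 9 leukocyte genes and 4 of the 12 fibroblast genes. It also held for 2 of the 9 endothelial genes and 2 of the 6 alveolar type 1 genes. Both mutants lay below both controls for 7 of the 8 alveolar type 2 genes (19.5% of all genes tested). So they did for 2 of the 6 mesothelial genes and 1 of the 8 pericyte genes. That pericyte gene was *Rgs5*, with 244 and 342 normalized counts for controls, against 192 and 201 for mutants. The part of these cells in the collagen values was not tested.

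Collagen transcripts were abundant in all 4 libraries. Together the 41 genes had 52697 and 45974 normalized counts for controls, against 58674 and 50906 for mutants, or 0.752% and 0.642% of the library total in controls and 0.851% and 0.748% in mutants. The groups overlapped, since control replicate 1 lay above Tet3 mutant replicate 2. Per kilobase of exon, a scale on which different genes can be compared, 12 of the 35 members tested stood among the 1000 highest of the 16659 genes tested, both with the union of a gene's exons and with its longest transcript as the length. The highest was *Col6a1*, a chain of the type VI trimer, at a mean of 669 normalized counts per kilobase and rank 25 of all genes tested. *Col1a1*, the alpha 1 chain of type I collagen, followed at 575 (rank 56), then the type IV chains *Col4a1* (534, rank 83) and *Col4a2* (490, rank 120), then *Col6a3* (478), *Col3a1* (437), *Col14a1* (418), *Col6a2* (362), *Col5a1* (332) and *Col1a2* (318). These 10 genes made up 67.7% to 70.6% of the summed collagen level per kilobase. The order depends on the length used: with the longest transcript, *Col3a1* stood first among collagens (rank 31), followed by *Col1a2* (rank 37) and *Col6a1* (rank 49).

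By family, type VI genes held 22.1% to 23.7% of the summed collagen level per kilobase, the major fibril-forming genes *Col1a1*, *Col1a2* and *Col3a1* 19.5% to 20.2%, and FACIT genes 9.40% to 11.2%. Type IV genes took 18.5% in control replicate 1, 24.7% in control replicate 2 and 19.3% in each mutant. The share of type IV thus differed most between the controls themselves.

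**Figure D1:**
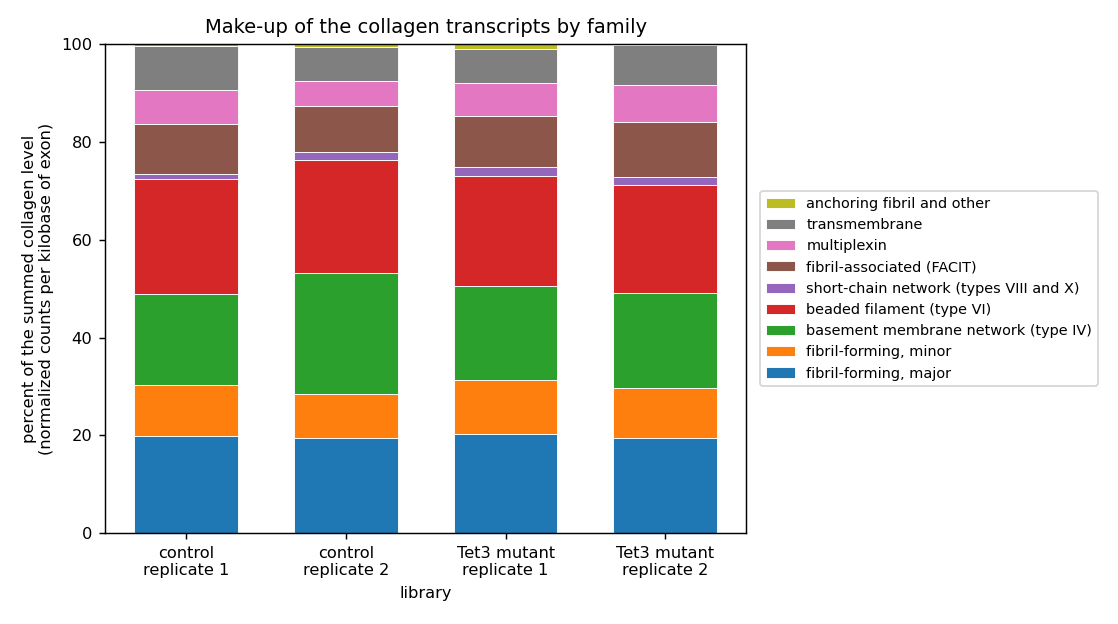
Percent of the summed collagen level (normalized counts per kilobase of exon) held by each of 9 families, stacked for each of the 4 libraries. Type IV is widest in control replicate 2, at 24.7%, against 18.5% to 19.3% in the others.

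At the other end, 6 members had a mean of 2 to 7.25 normalized counts and were not tested. They were *Col2a1* and *Col11a1*, fibril chains of cartilage, *Col6a4*, *Col19a1*, *Col25a1* and *Col26a1*. *Col2a1* had 1 and 0 normalized counts for controls, against 2 and 5 for mutants, around the floor of 3 counts that a level of 0 allows. *Col6a4* had 10 and 12 for controls, against 1 and 6 for mutants. The cartilage chains *Col9a3* and *Col11a2* just passed the minimum, with 6 to 18 and 13 to 29. Of 10 cartilage markers other than collagens, 5 were in the table, with a summed level of 553 to 671. The largest part of this sum in each library was *Sox5* (320 to 472), beside *Sox6* (70 to 282) and *Sox9* (23 to 84). *Hapln1* (4 to 13) and *Chad* (6 to 38) were low. *Acan*, *Matn1*, *Matn3*, *Cnmd* and *Snorc* were not in the table.

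**Figure D2:**
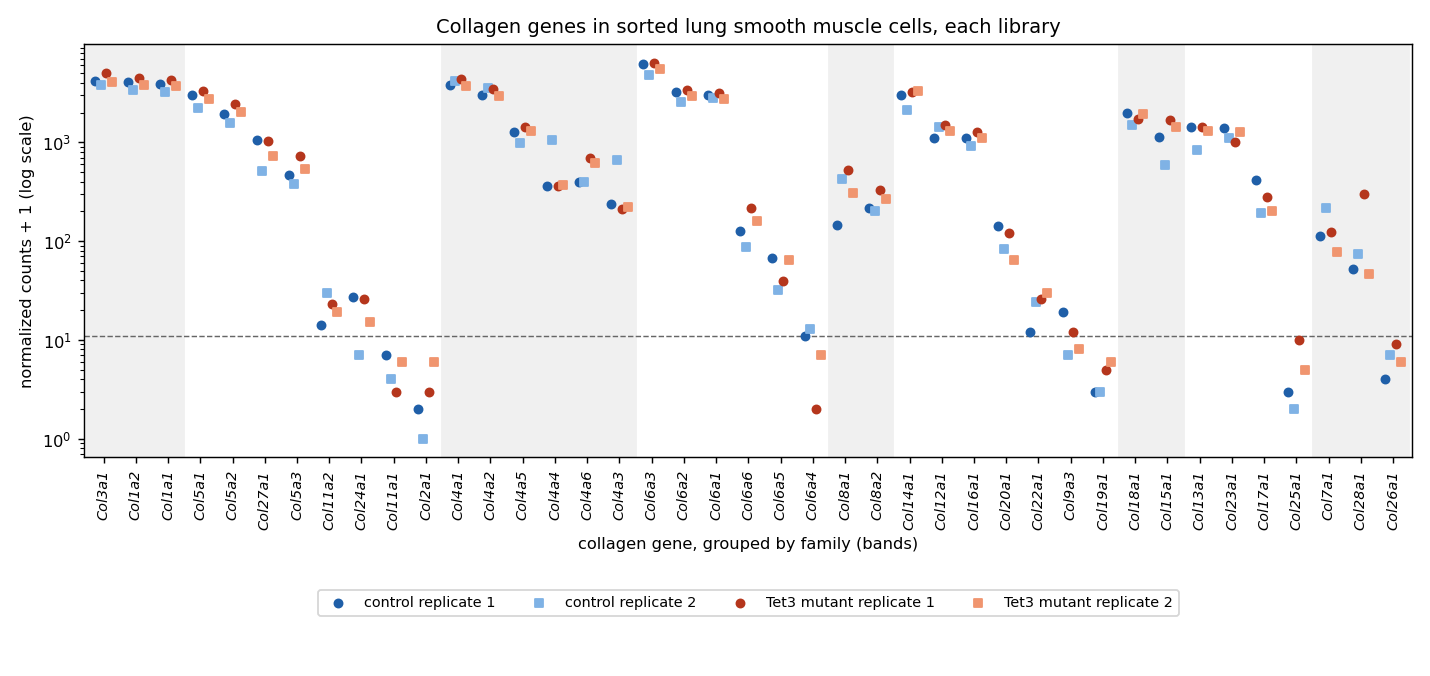
Normalized counts plus 1 on a log axis for the 41 collagen genes, 1 point for each of the 4 libraries, grouped by family in bands; the dashed line marks the mean minimum of 10. The range over the libraries differs between genes. *Col4a3* and *Col4a4* are high in control replicate 2, *Col28a1* is high in Tet3 mutant replicate 1, and *Col8a1* runs from 146 to 521.

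The comparison of Tet3 mutant with control libraries asked whether collagen transcripts differed after loss of *Tet3* in SMCs. No collagen gene passed the threshold. Of the 35 tested, 0 had a limma adjusted p under 0.05 over all genes tested (background 0%), and the smallest was 0.681. At an unadjusted limma p under 0.05 (background 6.68%) there were 5 members higher in the mutants, *Col4a6*, *Col8a2*, *Col6a6*, *Col15a1* and *Col5a3* (background 3.83%), and 0 lower (background 2.85%). In GRCm38 these genes lie at chrX:141165403-141474076 for *Col4a6*, chr4:126286793-126314330 for *Col8a2*, chr9:105687809-105828160 for *Col6a6*, chr4:47208161-47313167 for *Col15a1* and chr9:20770050-20815067 for *Col5a3*. Fold changes below are on the log2(value + 1) scale, Tet3 mutant over control, with moderated standard errors. They were above 0 for 27 of the 35 members (background 49.0%), with a median of 0.17, against -0.0069 over all genes tested. Without control replicate 2, 21 of 35 were above 0 (background 47.2%) and the median was 0.029, against -0.015 over all genes tested. The median over members was 0.050 without Tet3 mutant replicate 1, 0.31 without control replicate 1 and 0.29 without Tet3 mutant replicate 2. In 10 members both mutant libraries lay above both controls (background 19.6%), and in 1, *Col4a3*, both lay below (background 19.5%). The 10 were *Col4a5*, *Col4a6*, *Col5a2*, *Col5a3*, *Col6a6*, *Col8a2*, *Col14a1*, *Col15a1*, *Col16a1* and *Col22a1*.

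Differences between replicates were of the same order. Control replicate 2 was the lowest library for 22 of the 35 members (background 33.1%) and the highest for 5 (background 33.2%). The median absolute log2 difference between the controls was 0.43 over the members and 0.28 over all genes tested, and between the mutants it was 0.24 and 0.18. Tet3 mutant replicate 1 was above replicate 2 in 28 of the 35 members and in 46.8% of all genes tested. The summed level of the fibroblast genes was lowest in control replicate 2 (16459) and highest in Tet3 mutant replicate 1 (19287), the same libraries in which the summed collagen counts were lowest and highest. This order was not particular to fibroblast genes. The sums of the endothelial genes (14362 and 15629) and of the leukocyte genes (4749 and 6511) were lowest and highest in these libraries too. The median log2 fold change of these 12 fibroblast genes was 0.16, with 9 above 0 (background 49.0%), and was 0.016 without control replicate 2. The part of fibroblasts, endothelium and leukocytes in the collagen values was not tested.

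**Figure D3:**
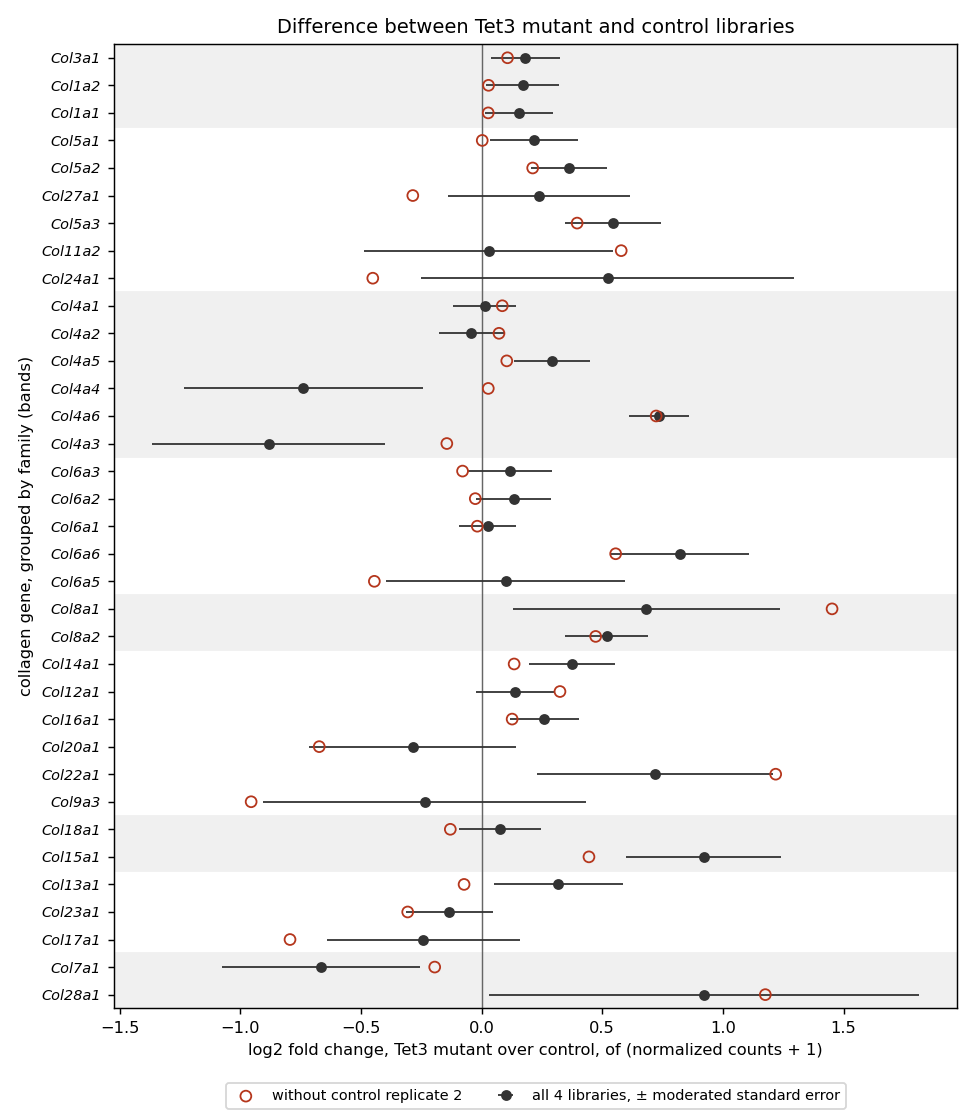
Log2 fold change, Tet3 mutant over control, of (normalized counts + 1) for the 35 collagen genes tested, with the moderated standard error as a bar (filled points) and without control replicate 2 (open circles). Filled points lie above 0 for 27 genes and open circles for 21, and *Col4a6* hardly moves between them.

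Of the major fibril-forming genes, none differed beyond the spread between replicates. *Col1a1* had 3891 and 3261 normalized counts for controls, against 4262 and 3689 for mutants. For *Col1a2*, which supplies the alpha 2 chain of type I collagen, the values were 4086 and 3354 for controls, against 4529 and 3835 for mutants. *Col3a1*, whose trimers mix with type I in distensible tissue, had 4221 and 3809 for controls, against 5057 and 4088 for mutants. In each of these genes the groups overlapped, and Tet3 mutant replicate 1 was highest and control replicate 2 lowest. Log2 fold changes were 0.15 ± 0.14, 0.17 ± 0.15 and 0.18 ± 0.14 (standard error), with limma adjusted p of 0.769, 0.762 and 0.741, and without control replicate 2 they were 0.027, 0.029 and 0.11.

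Type V chains, which are incorporated into type I fibrils and set their diameter, were somewhat further apart. *Col5a3* had 469 and 381 normalized counts for controls (425 ± 62.2; SD, n = 2), against 719 and 530 for mutants (624.5 ± 134; SD, n = 2), so that both mutants lay above both controls. The difference was 0.55 ± 0.20 on the log2 scale (limma adjusted p 0.681), and 0.40 without control replicate 2. *Col5a2* had 1937 and 1573 for controls, against 2465 and 2041 for mutants, also without overlap, at a log2 fold change of 0.36 ± 0.16 (limma adjusted p 0.681), and 0.21 without control replicate 2. *Col5a1*, the chain common to most type V trimers, had 3002 and 2232 for controls, against 3294 and 2745 for mutants, which overlapped (0.22 ± 0.18), and without control replicate 2 the log2 fold change was 0.0024. *Col27a1*, a fibril-forming chain of cartilage and other tissues, had 1060 and 513 for controls, against 1033 and 732 for mutants, for a log2 difference of 0.24, which became -0.29 without control replicate 2.

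Among the type IV genes, the 3 head-to-head pairs showed 3 different patterns. *Col4a1* and *Col4a2*, the chains of nearly all basement membranes, overlapped between the groups. *Col4a1* had 3766 and 4170 normalized counts for controls, against 4327 and 3690 for mutants, and *Col4a2* had 3033 and 3554 for controls, against 3425 and 2967 for mutants. Their log2 fold changes were 0.012 ± 0.13 and -0.043 ± 0.14 (limma adjusted p 0.986 and 0.943), and 0.085 and 0.072 without control replicate 2. The ratio of *Col4a1* to *Col4a2* per kilobase stayed between 1.04 and 1.12 over the 4 libraries.

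*Col4a3* and *Col4a4*, chains of the specialised basement membrane of alveoli and glomeruli, were set apart by 1 control library. *Col4a3* had 236 and 659 normalized counts for controls, against 208 and 219 for mutants. For *Col4a4* these were 361 and 1047 for controls, against 363 and 373 for mutants. Control replicate 2 held 2.79 times as much *Col4a3* and 2.90 times as much *Col4a4* as control replicate 1, while the other 3 libraries lay close together. *Col4a3* had the lowest fold change of all members tested, at -0.88 ± 0.48 (limma adjusted p 0.689), and was the only one of them with both mutants below both controls. Without control replicate 2 it was -0.14, and that of *Col4a4* moved from -0.74 to 0.027. In the same library the 6 alveolar type 1 markers had a summed level of 4353, against 1802 to 2739 in the others, and 4 of the 6 were highest there, namely *Ager* (1232 against 497 to 766), *Aqp5* (970 against 186 to 434), *Cldn18* (1522 against 372 to 799) and *Rtkn2* (169 against 76 to 88). The remaining genes of that list, *Hopx* (215 against 226 to 248) and *Pdpn* (245 against 339 to 426), were lowest in it. The 8 alveolar type 2 markers had 22798, against 10661 to 15158. None of the alveolar type 1 markers was at 0 in any library, and their part in the *Col4a3* and *Col4a4* values was not tested.

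*Col4a6*, an X-linked chain of basement membranes around smooth muscle, had the smallest unadjusted p of the collagen genes. It had 399 and 393 normalized counts for controls (396 ± 4.24; SD, n = 2), against 700 and 621 for mutants (660.5 ± 55.9; SD, n = 2). Both mutants lay above both controls, by 0.73 ± 0.12 on the log2 scale, a 1.66-fold difference. The limma unadjusted p was 0.00182 and the adjusted p 0.681. With any 1 library left out the value lay between 0.65 and 0.82, and it was 0.72 without control replicate 2. Its neighbour *Col4a5*, also X-linked, had 1274 and 984 for controls, against 1438 and 1304 for mutants, likewise without overlap, at 0.29 ± 0.16, and 0.10 without control replicate 2. The ratio of *Col4a5* to *Col4a6* per kilobase was 3.79 and 2.97 for controls, against 2.44 and 2.49 for mutants. The summed levels of smooth muscle markers and of pericyte markers (4578 and 4844 in controls, 6532 and 5633 in mutants) put both mutants above both controls, as did those of endothelial, ciliated cell and leukocyte markers, and their part in the *Col4a6* values was not tested. Within the pericyte list, *Rgs5* went the other way.

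Type VI chains are secreted as trimers of alpha 1, alpha 2 and another, longer chain. *Col6a1* had 2988 and 2814 normalized counts for controls, against 3174 and 2743 for mutants, *Col6a2* 3199 and 2568 for controls, against 3389 and 2911 for mutants. *Col6a3*, the collagen gene with the most counts, had 6245 and 4747 for controls, against 6385 and 5473 for mutants. The groups overlapped in all 3, with log2 fold changes of 0.025 ± 0.12, 0.13 ± 0.15 and 0.12 ± 0.17, and each was slightly below 0 without control replicate 2 (-0.018, -0.026 and -0.079). *Col6a6*, a chain that can take the place of alpha 3, was much lower in level. It had 125 and 86 for controls, against 216 and 157 for mutants, without overlap, at 0.82 ± 0.28 (limma adjusted p 0.681) and at 0.56 without control replicate 2. Its neighbour *Col6a5*, on the same strand of chromosome 9, had 67 and 31 for controls, against 38 and 63 for mutants (0.099 ± 0.49, and -0.44 without control replicate 2).

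Type VIII chains form short-chain networks in vessel walls and under endothelium. *Col8a2* had 213 and 200 normalized counts for controls (206.5 ± 9.19; SD, n = 2), against 328 and 267 for mutants (297.5 ± 43.1; SD, n = 2). Both mutants exceeded both controls, at a log2 fold change of 0.52 ± 0.17 (limma adjusted p 0.681) that lay between 0.37 and 0.67 when 1 library was left out. *Col8a1* varied more, with 146 and 426 for controls, against 521 and 309 for mutants. The controls differed 2.92-fold for this gene, so that a log2 difference of 0.68 ± 0.55 became 1.45 without control replicate 2 and -0.086 without control replicate 1.

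*Col15a1*, a chain of the multiplexin group that links basement membranes to the fibrils beneath, had 1135 and 587 normalized counts for controls (861 ± 387; SD, n = 2), against 1679 and 1422 for mutants (1550.5 ± 182; SD, n = 2). Both mutants lay above both controls. The difference was 0.92 ± 0.32 on the log2 scale (limma adjusted p 0.681), and it was 0.44 without control replicate 2, the library with the lowest value. The related chain *Col18a1*, source of endostatin, had 1998 and 1504 for controls, against 1714 and 1945 for mutants (0.075 ± 0.17, and -0.13 without control replicate 2).

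Among the FACIT genes, *Col14a1*, which binds fibrils and marks matrix fibroblasts of the lung, had 2994 and 2145 normalized counts for controls, against 3257 and 3317 for mutants. Both mutants were above both controls, at 0.38 ± 0.18 (limma adjusted p 0.681), and 0.13 without control replicate 2. *Col16a1* had 1093 and 909 for controls, against 1279 and 1113 for mutants, without overlap, at 0.26 ± 0.14, and 0.13 without control replicate 2. *Col12a1*, a fibril-binding chain of tissue under tension, had 1112 and 1437 for controls, against 1498 and 1295 for mutants, at 0.14 ± 0.16, and 0.32 without control replicate 2. *Col20a1*, *Col22a1* and *Col9a3* were low, between 6 and 141 normalized counts.

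Transmembrane collagens showed no difference beyond the spread between replicates. *Col13a1*, another chain known from lung fibroblasts, had 1428 and 830 normalized counts for controls, against 1431 and 1288 for mutants, so that control replicate 2 alone was low (0.32 ± 0.27, and -0.073 without it). *Col23a1* had 1411 and 1110 for controls, against 1015 and 1282 for mutants (-0.13 ± 0.18, and -0.31 without control replicate 2). *Col17a1*, a component of epithelial hemidesmosomes, had 412 and 191 for controls, against 277 and 203 for mutants (-0.24 ± 0.40, and -0.79 without that library).

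Of the remaining members, *Col28a1* had the largest log2 fold change of those tested, at 0.92 ± 0.89 (limma adjusted p 0.782), and it rested on 1 library. It had 51 and 73 normalized counts for controls, against 299 and 45 for mutants, and without Tet3 mutant replicate 1 the log2 fold change was -0.43. The chain is known from peripheral nerve, around Schwann cells, and the 5 Schwann cell markers in the table had a summed level of 4066 in this library, within the 3606 to 4376 of the others. *Col7a1*, which forms the anchoring fibrils under stratified epithelia, had 112 and 216 for controls, against 124 and 77 for mutants, at -0.67 ± 0.41, and -0.19 without control replicate 2.

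Partner chains were also read as ratios within a library, and their steadiness differed between pairs. Per kilobase of exon, *Col1a1* to *Col1a2* had a ratio of 1.80 and 1.84 for controls, against 1.78 and 1.82 for mutants, a spread of 1.03-fold over libraries in which *Col1a1* itself ran from 3261 to 4262. The size of this ratio depends on the length used, since its mean log2 value was 0.86 with the union of exons and -0.21 with the longest transcript, whereas its spread does not. *Col4a3* to *Col4a4* had 0.70 and 0.67 for controls, against 0.61 and 0.63 for mutants, although both genes were high in control replicate 2. This ratio, that of *Col4a5* to *Col4a6* and that of *Col5a1* to *Col5a2* were lower in both mutants than in both controls. That of *Col4a1* to *Col4a2* was higher in both mutants, at 1.101 and 1.040 for controls, against 1.120 and 1.103 for mutants. In the remaining pairs the groups overlapped. *Col5a1* to *Col5a2* had 1.75 and 1.60 for controls, against 1.51 and 1.52 for mutants. For *Col6a1* to *Col6a2* it was 1.78 and 2.08 for controls, against 1.78 and 1.79 for mutants, and for *Col6a3* to *Col6a1* 0.77 and 0.62 for controls, against 0.74 and 0.73 for mutants. In contrast, *Col8a1* to *Col8a2* ran from 0.39 to 1.22. With 2 against 2 libraries the smallest p of a two-sided exact permutation test is 0.33, so the ratios are given as values. *Col9a1*, *Col9a2*, *Col10a1* and *Col21a1* were not in the deposited table and so were not analysed here.

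**Figure D4:**
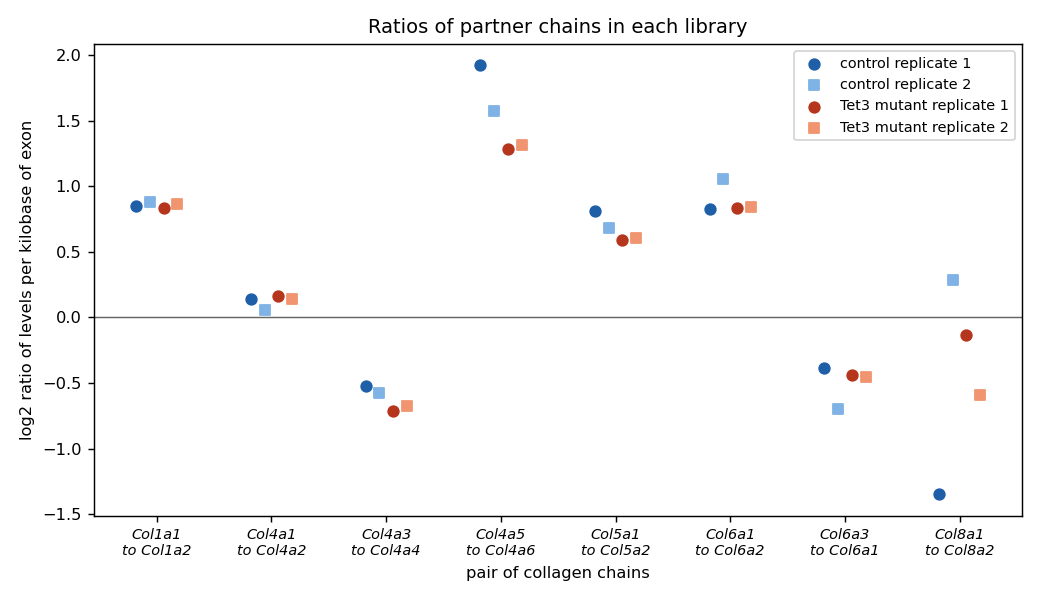
Log2 ratio of the levels per kilobase of exon for 8 pairs of collagen chains, 1 point for each of the 4 libraries. *Col1a1* to *Col1a2* spans 0.83 to 0.88, *Col4a5* to *Col4a6* lies at 1.92 and 1.57 for controls, above the mutant points at 1.29 and 1.32, and *Col8a1* to *Col8a2* is the most scattered.

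Genes that make, process or bind collagen were read beside the chains. Of 45 listed, 42 were in the table and all of those were tested. None had a limma adjusted p under 0.05, and 1 had an unadjusted p under 0.05 (background 6.68%). Log2 fold changes were above 0 for 33 (background 49.0%) and below 0 for 9, with a median of 0.16. Without control replicate 2 the median was 0.049, with 26 above 0 (background 47.2%). Both mutants lay above both controls in 16 (background 19.6%) and below them in 3 (background 19.5%).

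By role, the 15 genes of prolyl and lysyl hydroxylation and glycosylation had a median log2 fold change of 0.17, with 10 above 0, and of 0.083 without control replicate 2, with 12 above 0. Over all genes tested, 49.0% were above 0, and 47.2% without control replicate 2. *P4ha1*, a catalytic subunit of prolyl 4-hydroxylase, had 894 and 1210 normalized counts for controls, against 947 and 1028 for mutants (-0.076 ± 0.17, and 0.14 without control replicate 2). *Plod2*, a lysyl hydroxylase, had 879 and 451 for controls, against 735 and 740 for mutants (0.23 ± 0.32, and -0.25 without control replicate 2). The 10 genes of folding and export from the endoplasmic reticulum had a median of 0.15, with 9 above 0, which was 0.11, with 7 above 0, without control replicate 2. *Serpinh1*, the collagen chaperone HSP47, had 1325 and 1183 for controls, against 1583 and 1375 for mutants (0.24 ± 0.13, and 0.15 without control replicate 2). For the 7 genes of procollagen processing tested the median was 0.071, with 5 above 0, and without control replicate 2 it was -0.017, with 2 above 0.

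Collagen receptors included the 1 gene of these lists with an unadjusted p under 0.05. *Ddr2*, a receptor tyrosine kinase for fibrillar collagen, had 2431 and 2422 normalized counts for controls (2426.5 ± 6.36; SD, n = 2), against 3608 and 3101 for mutants (3354.5 ± 358.5; SD, n = 2). Both mutants lay above both controls, at a log2 fold change of 0.46 ± 0.12 (limma adjusted p 0.681), which was 0.46 without control replicate 2 as well. *Itga1*, the alpha 1 integrin subunit that binds type IV collagen, had 2813 and 2010 for controls, against 2823 and 2451 for mutants (0.15 ± 0.19, and -0.097 without control replicate 2). Over the 10 receptors the median was 0.17, with 9 above 0 (background 49.0%). Without control replicate 2 the median was -0.029, with 5 above 0 (background 47.2%).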

How the data were processed

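RNA from sorted lung SMCs was depleted of ribosomal RNA and made into stranded total RNA libraries, which were sequenced single-end. Per the submitters' processing notes and methods, Trimmomatic 0.36 did the trimming, STAR 2.6.0c the alignment to mm10 (GRCm38), and featureCounts of Subread 1.6.0 the counting by exon, without reads that fit several places or genes. Use of strand in counting is not given in the sources used here, and 12 members share exon sequence with another gene, at most 6.07% of their exon length. What was deposited is a score, since the authors divided gene counts by DESeq2 size factors and rounded the quotients. No raw counts were used, so a count-based test was not run. Floors cover counting error only.

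Genes with a mean of at least 10 (16659) were compared on log2(value + 1) by the moderated linear model of limma 3.58.1 under R 4.3.3, its variance prior following mean level, with a two-sided test and Benjamini-Hochberg adjustment over all of them. The procedure was run on simulated counts with 1 fixed, low spread and large planted changes, which does not measure its power in these libraries. Exon lengths came from GENCODE M21, in which all 41 members had the deposited coordinates. Titles gave the genotype and replicate number. Full values were given for the 10 members highest per kilobase, members with a mean of at least 50 and an unadjusted p under 0.05, members of partner pairs, and the highest and lowest log2 fold change. Other members, and the alveolar type 1 genes named, were added after their values were seen. Members, families, pathway genes and cell type markers were chosen with earlier results of these data known. Alternatives were a pseudocount of 0.5 or 8, a minimum mean of 1 or 50, median-ratio and upper-quartile factors, equal totals, limma without the trend, a replicate block, each library left out and, for levels per kilobase, the longest transcript as the length.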

Additional observations from a re-analysis of the deposited data

How the results depend on the processing

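No collagen gene was called at a limma adjusted p under 0.05 under any of the 13 alternatives. The 5 members with an unadjusted p under 0.05 became 3 without the trend (6.83% of all genes tested), and leaving out 1 library gave 1 (without Tet3 mutant replicate 1, where 1.64% of all genes tested had such a p) to 8 (without control replicate 1, where 20.2% did, and 6 of the 8 were higher in the mutants). The median over members then lay between 0.029 and 0.31. The median over members lay between 0.17 and 0.22 under the processing alternatives, while equal totals moved the median of all genes from -0.0069 to 0.042, and *Col4a2* then changed sign, to 0.0060. This was the only sign change of a single member under these alternatives. With 1 library left out, the lone sample of a group is assumed to vary like the other group, and 19 of 35 members changed sign. Their ranges were *Col4a1* -0.10 to 0.13, *Col4a2* -0.16 to 0.072, *Col4a4* -1.51 to 0.027, *Col6a1* -0.080 to 0.13, *Col6a2* -0.026 to 0.29, *Col6a3* -0.079 to 0.32, *Col6a5* -0.44 to 0.64, *Col8a1* -0.086 to 1.45, *Col9a3* -0.96 to 0.49, *Col11a2* -0.52 to 0.58, *Col12a1* -0.045 to 0.32, *Col13a1* -0.073 to 0.71, *Col17a1* -0.79 to 0.31, *Col18a1* -0.13 to 0.28, *Col20a1* -0.74 to 0.17, *Col23a1* -0.31 to 0.039, *Col24a1* -0.45 to 1.496, *Col27a1* -0.29 to 0.76 and *Col28a1* -0.43 to 2.27. The cause was not tested.

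Levels between genes depend on the length taken. With the longest transcript, mean shares of the summed collagen level were 8.39% for *Col6a1*, 7.44% for *Col1a1*, 5.94% for *Col4a2*, 6.59% for *Col6a3*, 9.01% for *Col3a1*, 5.28% for *Col14a1*, 7.17% for *Col6a2*, 3.90% for *Col5a1* and 8.62% for *Col1a2*. Mean log2 ratios of partner chains were then -0.21 for *Col1a1* to *Col1a2*, 0.26 for *Col4a1* to *Col4a2*, -0.47 for *Col4a3* to *Col4a4*, 1.30 for *Col4a5* to *Col4a6*, 0.15 for *Col5a1* to *Col5a2*, 0.22 for *Col6a1* to *Col6a2* and 0.12 for *Col8a1* to *Col8a2*. The shift of a log2 ratio follows from the lengths and is the same in every library.

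Replicate numbers recur in both groups. Deviations from the group means of samples with the same number had a Pearson r of 0.13 and a Spearman rho of 0.12 across 16659 genes. As there are 2 pairs, this does not establish a pairing. In a fit with a replicate block, 0 collagen genes were called, 6 had an unadjusted p under 0.05 (9.83% of all genes tested) and the median was 0.17.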
